A study of Homo sapiens with 4 samples.

Results

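WNT feedback genes and antagonists were followed in SNU-16 cells that had grown as tumours in mice. SNU-16 is an established human gastric carcinoma cell line. The gene group was defined by name as DKK1, DKK4, AXIN2, NKD1, LGR5, RNF43, ZNRF3, NOTUM, SP5 and TCF7, 10 genes in all. Of these, 9 had a probe set annotated to that gene alone, each with 1 probe set, among 18417 genes represented on the array. No row used here was named TCF7, which encodes a TCF/LEF family transcription factor, so that gene was not analysed here.

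The data were 4 arrays, 1 for each combination of site and implantation round. The ovary round 2 array came from an ovarian metastasis that formed after cells of the ovary round 1 metastasis had been cultured for 7 days and put back into the stomach wall. How long cells of the round 2 tumours were cultured is not stated, so implantation round and any difference in culture cannot be told apart. The ovary round 1 array came from a metastasis seeded by parental SNU-16 cells. The stomach round 2 array came from a stomach wall tumour grown from cultured cells of the stomach round 1 tumour, and the stomach round 1 array from a stomach wall tumour grown from parental SNU-16 cells. All hosts were BALB/c nude mice, which lack T cells and keep B cells and natural killer cells, and no group received a drug or carried an engineered allele according to the labels. RNA was taken from pellets of recovered cells, so the round 2 arrays are successive passages of the round 1 lineages and not independent tumours, and the labels do not say how many animals gave each line or whether animals were pooled. The free-text descriptions contradict the titles for round 2: for the stomach sample the text gives ovary as the site put into culture, and for the ovary sample its last sentence locates the tumour in the stomach. Titles were followed here. Exchanging these 2 arrays would leave the mean round difference of each gene as it is, and would change its site difference and its round difference within each lineage.

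In the canonical pathway a WNT ligand engages a Frizzled receptor and an LRP co-receptor, the destruction complex stops degrading beta-catenin, and beta-catenin then drives transcription with TCF/LEF factors. Many of the genes switched on in this way encode proteins that restrain the pathway at the ligand, the receptor or the destruction complex, and their transcripts are widely read as a record of pathway output. In the mouse stomach, Lgr5 marks gland base cells with stem cell activity.

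All values are log2 expression, 1 value per gene and array, so a difference of 1 is a 2-fold change, and every difference is round 2 minus round 1 or ovary minus stomach. A signal minimum of 5.64, the 30th percentile of the mean of all rows, was passed by 8 of the 9 measured genes and by 14547 genes in all. LGR5 did not pass. All 8 epithelial markers were above the minimum with medians between 11.58 and 11.82. Of 8 leukocyte markers 4 were above it, with TYROBP the highest at 7.38 to 7.48 and PTPRC the lowest at 3.97 to 4.11. Of 8 fibroblast markers 5 were above it, with COL1A1 the highest at 7.54 to 7.62 and POSTN the lowest at 3.38 to 3.54.

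DKK1 and SP5 were the members furthest apart between rounds, in opposite directions, and their promoters are shown for that reason. The windows run from 250 bases before to 50 bases after the start of the gene on its own strand (RefSeq, GRCh38.p14). DKK1 lies at chr10:52314031-52314330, plus strand, and SP5 at chr2:170715087-170715386, plus strand. Capitals mark matches to CTTTGAA or CTTTGAT on either strand, forms of the core of the TCF/LEF recognition sequence. Other forms, such as CTTTGTT, were not searched and are not marked.
DKK1: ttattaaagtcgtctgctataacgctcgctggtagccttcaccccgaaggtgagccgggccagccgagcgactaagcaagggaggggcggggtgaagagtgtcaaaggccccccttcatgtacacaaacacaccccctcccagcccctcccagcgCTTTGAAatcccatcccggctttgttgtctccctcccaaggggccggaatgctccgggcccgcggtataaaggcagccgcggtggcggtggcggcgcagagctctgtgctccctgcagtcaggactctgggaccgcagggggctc
SP5: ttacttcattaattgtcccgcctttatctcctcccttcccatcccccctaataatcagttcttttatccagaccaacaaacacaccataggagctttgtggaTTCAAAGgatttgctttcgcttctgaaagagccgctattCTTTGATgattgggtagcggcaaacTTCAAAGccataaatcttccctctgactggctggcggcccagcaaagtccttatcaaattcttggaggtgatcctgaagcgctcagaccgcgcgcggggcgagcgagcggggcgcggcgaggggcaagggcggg

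The DKK1 window held 1 match, CTTTGAA on the plus strand, whose first base lies at -95 from the start. The SP5 window held 3 matches that did not overlap, with first bases at -148 and -84 (CTTTGAA, minus strand) and at -109 (CTTTGAT, plus strand). Of 35116 windows of the same length over all genes, 6.86% held at least 1 match and 0.026% held at least 3. The windows of RNF43 and TCF7 that were available, 2 for each gene, held no match to the forms searched. A match here is a description of letters, and no binding was measured.

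**Figure D1:**
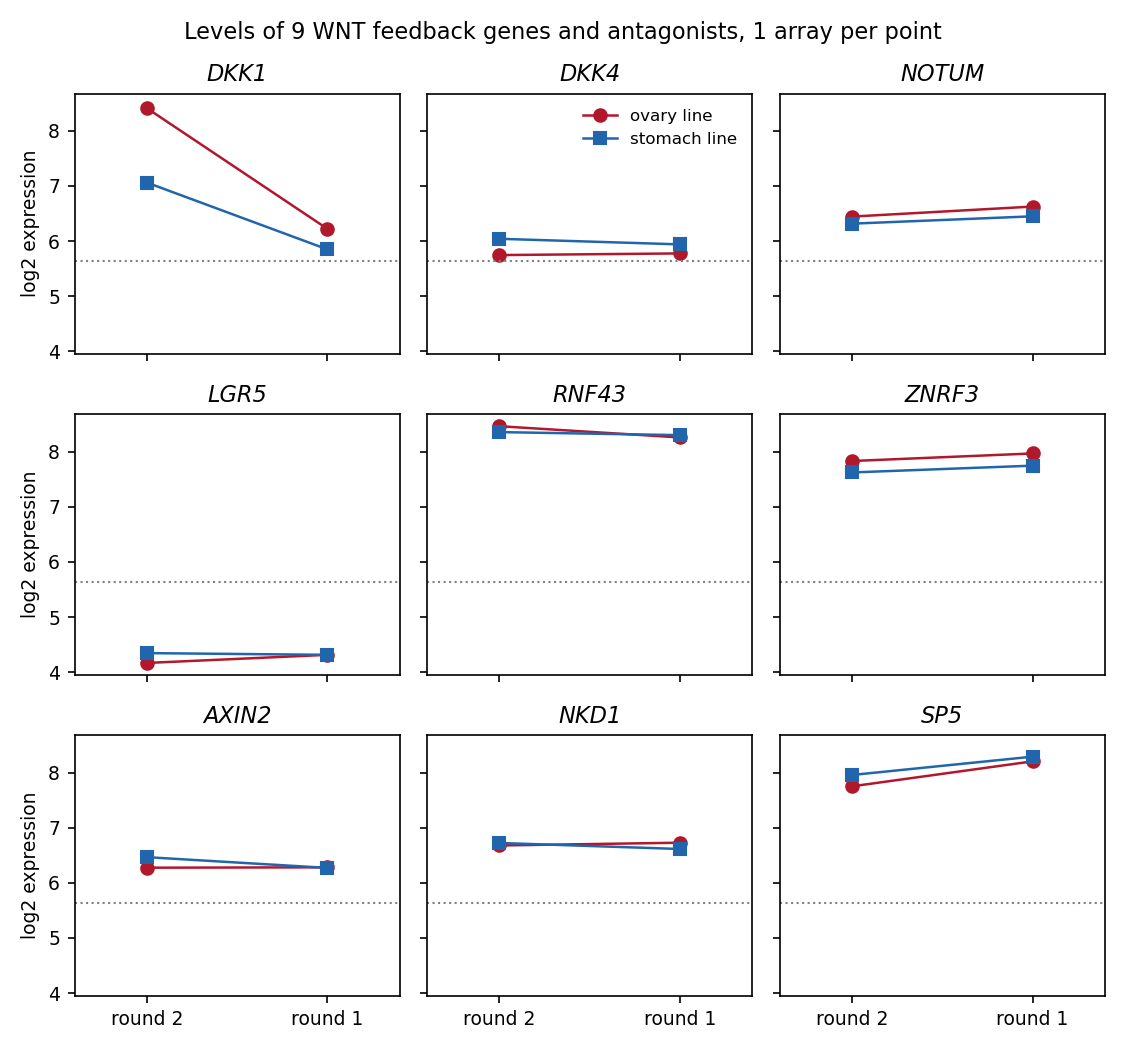
Log2 expression of the 9 measured genes (vertical axis) in round 2 and round 1 (horizontal axis), 1 array per point, with ovary lines as red circles, stomach lines as blue squares and the signal minimum of 5.64 as a dotted line. DKK1 spans 2.56 log2 units, whereas the other 8 genes span 0.11 to 0.54, and LGR5 lies under the minimum on every array.

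The secreted antagonists were DKK1, which blocks the LRP co-receptors, DKK4, a relative with the same kind of activity, and NOTUM, a carboxylesterase that removes the lipid WNT ligands need to signal. DKK1 (probe set 7927631, chromosome 10) stood at 8.41 in ovary and 7.06 in stomach in round 2, against 6.22 in ovary and 5.85 in stomach in round 1. Both round 2 arrays lay above both round 1 arrays, and the ovary round 2 array stood highest of the 4. The round 1 values were close to the signal minimum. The round difference was 4.56-fold in ovary lines and 2.32-fold in stomach lines. The arrays of a round are its 2 sites, so the spread within each round is the site difference. The mean levels were 7.74 ± 0.95 in round 2 and 6.04 ± 0.26 in round 1 (SD, n = 2 each), and the fitted difference was 1.70 ± 0.46 (limma's standard error), or 3.25-fold. It ranked 4 of 14547 genes by mean round difference, 5 in ovary lines and 13 in stomach lines. The difference did not pass the test across all genes (limma adjusted p = 0.287).

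DKK4 (probe set 8150529) stood at 5.75 in ovary and 6.04 in stomach in round 2, against 5.78 in ovary and 5.94 in stomach in round 1. The rounds overlapped and all values were near the signal minimum, with a fitted round difference of 0.036 ± 0.13 (limma adjusted p = 0.903). NOTUM (probe set 8019334, chromosome 17) stood at 6.44 in ovary and 6.32 in stomach in round 2, against 6.63 in ovary and 6.45 in stomach in round 1. Its round 2 arrays lay below its round 1 arrays, although the ovary round 2 and stomach round 1 values were almost level. The fitted round difference was -0.16 ± 0.10 (limma adjusted p = 0.480).

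Members that act at the receptor were LGR5, a receptor for R-spondins, and the ubiquitin ligases RNF43 and ZNRF3, which remove Frizzled receptors from the surface and are themselves cleared when R-spondin binds. LGR5 (probe set 7957140, chromosome 12) stood at 4.17 in ovary and 4.35 in stomach in round 2, against 4.32 on each of the round 1 arrays. All of these values lay under the signal minimum and the gene was not tested. The 2 round 1 values were equal to 6 decimals, as the values of at least 2 arrays were in 14.4% of all rows. RNF43 (probe set 8016994, chromosome 17) stood at 8.46 in ovary and 8.35 in stomach in round 2, against 8.26 in ovary and 8.30 in stomach in round 1. Both round 2 arrays lay above both round 1 arrays by a small margin, with a fitted difference of 0.13 ± 0.08 (limma adjusted p = 0.463). ZNRF3 (probe set 8072160, chromosome 22) stood at 7.83 in ovary and 7.62 in stomach in round 2, against 7.97 in ovary and 7.75 in stomach in round 1. Its rounds overlapped, and the 2 ligases differed in opposite directions between rounds (ZNRF3 by -0.13 ± 0.12, limma adjusted p = 0.610).

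Inside the cell, AXIN2 is a scaffold of the destruction complex and NKD1 a Dishevelled-binding inhibitor. AXIN2 (probe set 8017718, chromosome 17) stood at 6.27 in ovary and 6.47 in stomach in round 2, against 6.28 in ovary and 6.27 in stomach in round 1. Of these, 3 values were nearly level and only the stomach round 2 array was higher. NKD1 (probe set 7995525, chromosome 16) stood at 6.68 in ovary and 6.72 in stomach in round 2, against 6.73 in ovary and 6.61 in stomach in round 1. It varied least of the 9 genes, by 0.11 over the 4 arrays. The fitted round differences were 0.094 ± 0.093 for AXIN2 and 0.030 ± 0.079 for NKD1 (limma adjusted p = 0.627 and 0.867).

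SP5, a zinc finger transcription factor and direct target of beta-catenin, differed in the other direction from DKK1. It (probe set 8046276, chromosome 2) stood at 7.75 in ovary and 7.96 in stomach in round 2, against 8.20 in ovary and 8.29 in stomach in round 1. Both round 2 arrays lay below both round 1 arrays, by -0.45 in ovary lines and -0.33 in stomach lines. The mean levels were 7.85 ± 0.15 in round 2 and 8.24 ± 0.060 in round 1 (SD, n = 2 each), and the fitted difference of -0.39 ± 0.10 did not pass the test (limma adjusted p = 0.287).

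The comparison of rounds thus gave 0 of 8 tested members past an adjusted p of 0.05, as for all genes (0.0% of 14547 genes called). At an unadjusted p under 0.05 there were 2 members, DKK1 and SP5, beside 15.0% of all genes. Both round 2 arrays lay above both round 1 arrays in 2 members (DKK1 and RNF43) beside 22.2% of all genes, and below them in 2 members (NOTUM and SP5) beside 26.8%. These shares are near the background. Higher in round 2 by at least 2-fold at each site was 1 member, DKK1, beside 0.0687% of all genes. With the round 2 labels exchanged DKK1 would not meet this, since its ovary values would be 7.06 in round 2 and 6.22 in round 1. The median round difference was 0.033 over the 8 members and -0.019 over all tested genes, and the 7 members other than DKK1 differed by -0.39 to 0.13.

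**Figure D2:**
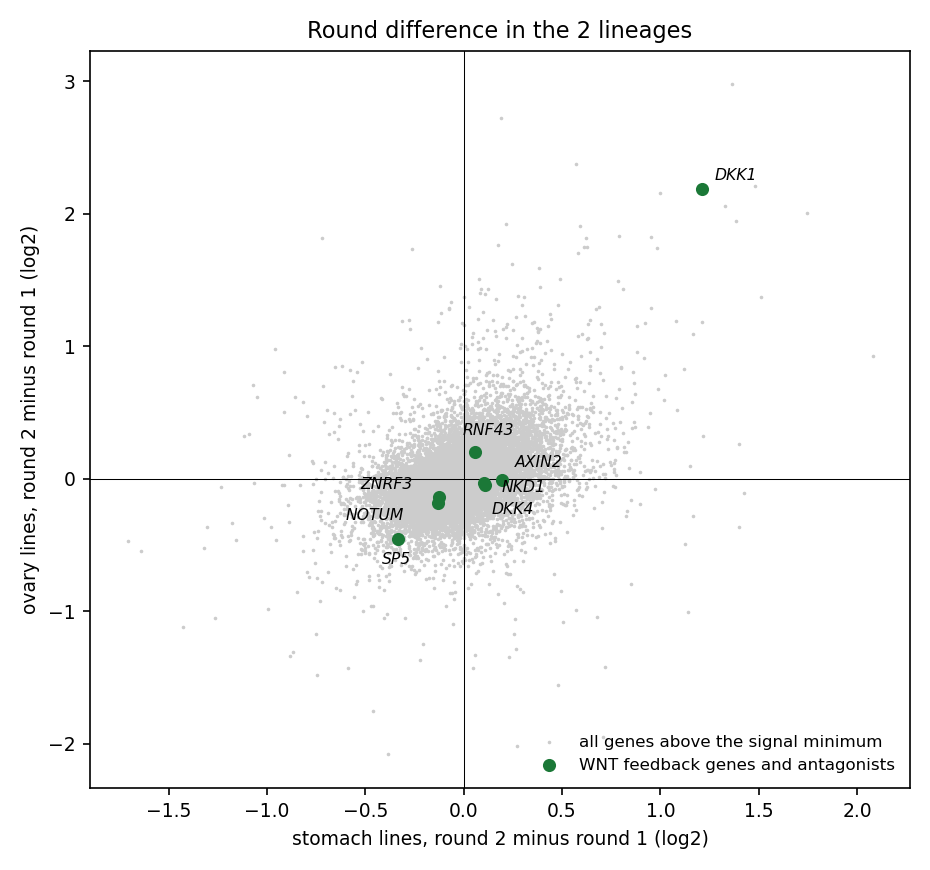
Round 2 minus round 1 in stomach lines (horizontal axis, log2) against the same in ovary lines (vertical axis, log2), with 1 point per gene, grey for all 14547 genes above the signal minimum and green for the 8 tested members. DKK1 lies at 1.21 and 2.19 and SP5 at -0.33 and -0.45, and the 7 members other than DKK1 lie inside the cloud.

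Between rounds, markers of other cell types were lower in round 2 in 6 of 8 fibroblast genes and in 6 of 8 leukocyte genes, with median differences of -0.070 and -0.016. So were 5 of 6 endothelial (median -0.14), 5 of 8 ovarian (median -0.10) and 2 of 3 mesothelial markers (median -0.086). Of all tested genes 54.5% were lower. Summed on the linear scale, the 8 fibroblast markers gave 536.2 in ovary and 546.7 in stomach in round 2, against 562.2 in ovary and 593.5 in stomach in round 1. LUM (0.24) and POSTN (0.13) were the 2 fibroblast markers with a higher mean in round 2, both under the signal minimum. Epithelial markers were higher in round 2 in 7 of 8 genes with a median difference of 0.14. The part of these markers in the DKK1 difference was not tested. Host cells were mouse cells, whereas the probe sets are named for human genes. How far mouse RNA was read was not tested, so in neither comparison do these values count host cells. Nor can fewer cells of a type and less RNA per cell be told apart in these samples.

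The site comparison set ovarian metastasis lines against stomach tumour lines. With the round 2 labels exchanged, each round 2 site difference below would change sign. By the titles, DKK1 was higher in ovary in each round, by 1.35 in round 2, or 2.55-fold, and by 0.37 in round 1. Its levels were 7.32 ± 1.55 in ovary and 6.46 ± 0.86 in stomach (SD, n = 2 each), and the difference was 0.86 ± 0.83 (limma adjusted p = 1.0). The arrays of a site are its 2 rounds, so the spread within each site is the round difference. With the labels exchanged DKK1 would be lower in ovary on average and in round 2, at 7.06 against 8.41 in stomach. Without the ovary round 2 array the DKK1 difference was -0.23, but this set ovary round 1 alone against both stomach rounds. The round difference enters that value, and within round 1 DKK1 was higher in ovary (0.37). Between sites, epithelial markers were lower in ovary in 7 of 8 genes (median -0.13) and leukocyte markers in 8 of 8 (median -0.062), while the 3 measured mesothelial markers were higher (median 0.065). Of 8 ovarian markers 5 were higher in ovary (median 0.023), among them all 4 above the signal minimum (median 0.042). By round, the mesothelial markers were higher in ovary in round 1 only (medians 0.18 in round 1 and -0.054 in round 2). These 4 ovarian markers were all higher in round 2 (median 0.12), but in round 1 their median was -0.025, with 1 higher and 2 lower. The epithelial median was -0.24 in round 1 and -0.0071 in round 2. The part of these markers in the DKK1 site difference was not tested. In round 2 DKK1 ranked 7 of 14547 genes by that single-array difference, and 488 in round 1.

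ZNRF3 was higher and DKK4 lower in ovary on both arrays. ZNRF3 levels were 7.90 ± 0.097 in ovary and 7.68 ± 0.087 in stomach, a difference of 0.21 ± 0.10 that was close to the same in round 2 (0.21) and round 1 (0.22). DKK4 levels were 5.76 ± 0.021 in ovary and 5.99 ± 0.072 in stomach, a difference of -0.23 ± 0.092, with -0.30 in round 2 and -0.16 in round 1. NOTUM was higher in ovary within each round (0.13 in round 2 and 0.18 in round 1) and SP5 lower (-0.21 in round 2 and -0.085 in round 1), with overlapping sites. AXIN2, NKD1 and RNF43 differed in opposite directions in the 2 rounds, none by more than 0.19.

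None of the 8 members passed the test between sites at an adjusted p of 0.05, nor did any other gene (0.0% of 14547 called), and 0 members had an unadjusted p under 0.05 beside 2.60% of all genes (limma). Both ovary arrays lay above both stomach arrays in 1 member, ZNRF3, beside 13.4% of all genes, and below them in 1, DKK4, beside 11.2%, shares that are near the background. The median difference was 0.034 over the members and 0.0016 over all tested genes. With 2 arrays against 2, an exact permutation test of 1 gene could not give a two-sided p below 0.333.

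**Figure D3:**
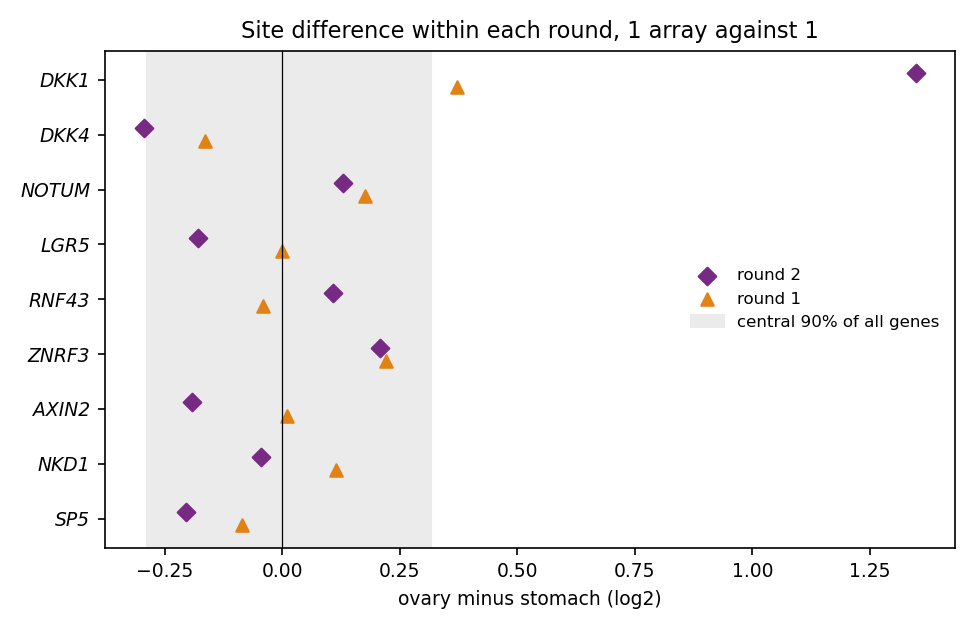
Ovary minus stomach (horizontal axis, log2) for the 9 measured genes, 1 array against 1, with purple diamonds for round 2 and orange triangles for round 1; grey marks the central 90% of single-array differences of all tested genes, from -0.29 to 0.32. DKK1 in round 2 lies at 1.35, far outside that band, and most other points lie inside it.

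The interaction of site and round is the round difference in ovary lines minus that in stomach lines. With 1 array for each site and round, a model of both effects and their interaction leaves no residual, so the fit counted the site and round effects as spread. It made no calls on simulated data either, and a count of 0 from it says nothing about whether the lineages differed. For DKK1 the round difference was larger in ovary than in stomach lines by 0.98, with a standard error of 1.79 in that fit. With the round 2 labels exchanged the DKK1 round difference would be smaller in ovary lines. Their values would be 7.06 in round 2 and 6.22 in round 1, against 8.41 and 5.85 in stomach lines. No member had an unadjusted p under 0.05, beside 1.33% of all genes, and no gene was called (0.0%). An interaction of at least 2-fold was seen in 0 members, beside 0.88% of all genes. With the round 2 labels exchanged DKK1 would pass that threshold. Over the other 7 tested members the interaction lay between -0.20 (AXIN2) and 0.15 (RNF43).

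The 5 genes whose profile over the 4 arrays lay closest to that of DKK1 were found by the Euclidean distance between profiles centred on their own means. ZFP42, a marker of pluripotent cells, was the closest at a distance of 0.13, with 7.11 in ovary and 5.92 in stomach in round 2, against 5.05 in ovary and 4.59 in stomach in round 1. MGAM, a maltase-glucoamylase of the intestinal brush border, followed at 0.47, with 7.27 in ovary and 5.51 in stomach in round 2, against 4.90 in ovary and 4.94 in stomach in round 1. Round 1 values of ZFP42 and MGAM lay under the signal minimum, as did the stomach round 2 value of MGAM. Their means of 5.67 and 5.65 passed it only through higher round 2 values, which are part of the profile being matched. The others were TP53INP1, a p53-induced gene (0.74), GLI3, a transcription factor of Hedgehog signalling (0.75), and SERTAD4 (0.79). The median distance of all tested genes was 1.98, and the other tested members lay at 1.82 to 2.39. The members' distances lay around that median, and likeness over 4 arrays says nothing of shared control.

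Of the other genes of the pathway, 120 had a named probe set and 101 lay above the signal minimum. At a limma adjusted p of 0.05, 0 were called between rounds and 0 between sites. Without adjustment the same threshold was passed by 17 between rounds and by 0 between sites, beside 15.0% and 2.60% of all genes. In 38 the mean round difference was above 0 and in 63 below it, with a median of -0.063 beside -0.019 over all tested genes. Both round 2 arrays lay above both round 1 arrays in 17 of the 101, beside 22.2% of all genes, and below them in 35, beside 26.8%. Leaving out 1 array moved 16 of the 21 round differences named below by over 1.5 times or turned them, the exceptions being FZD6, RSPO1, SFRP5, SOST and APC2.

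Of 12 other extracellular antagonists above the minimum 10 had a lower mean in round 2, beside 54.5% of all genes, and the median of the 12 was -0.15. In 7 of them both round 2 arrays lay below both round 1 arrays, beside the 26.8% given above. FRZB, a secreted Frizzled-related decoy, stood at 9.58 in ovary and 9.89 in stomach in round 2, against 10.03 in ovary and 10.26 in stomach in round 1, a fitted difference of -0.41 ± 0.14. SFRP5, a decoy of the same family, differed by -0.39 ± 0.11. SOST, whose product sclerostin binds LRP co-receptors, differed by -0.37 ± 0.12. None of the 3 passed the test (limma adjusted p of 0.316 for FRZB, 0.287 for SFRP5 and 0.304 for SOST).

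Of 17 ligands 14 had a lower mean in round 2, beside the same 54.5% of all genes, and the median of the 17 was -0.089. WLS, which carries WNT ligands to the cell surface, stood at 9.24 in ovary and 8.51 in stomach in round 2, against 9.29 in ovary and 9.34 in stomach in round 1, so the stomach round 2 array alone was low. The ligand WNT10B differed by -0.38 ± 0.11 and WNT3A by -0.26 ± 0.10. Of 16 receptors 5 had a higher mean in round 2. The co-receptors LRP6 (-0.35 ± 0.16) and LRP5 (0.32 ± 0.14) differed in opposite directions, and the Frizzled receptor FZD6 by 0.32 ± 0.09. Of 4 R-spondins and R-spondin receptors above the minimum 3 had a lower mean in round 2, with RSPO1 at -0.31 ± 0.09, RSPO4 at -0.16 ± 0.11 and LGR4, the receptor gene in the other direction, at 0.13 ± 0.17.

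Cytoplasmic and nuclear genes were divided. Of 24 cytoplasmic genes 13 had a higher and 11 a lower mean in round 2, with the Dishevelled-binding CXXC4 at -0.46 ± 0.18, the GSK3-binding FRAT1 at 0.29 ± 0.12 and APC2, a homologue of APC, at -0.28 ± 0.08. Of 14 nuclear factors 7 were higher and 7 lower. The corepressor TLE4 stood at 8.02 in ovary and 8.12 in stomach in round 2, against 6.59 in ovary and 7.99 in stomach in round 1, so the ovary round 1 array alone was low. Its round difference was 0.78 ± 0.47, and 0.07 without that array. SOX17 differed by -0.33 ± 0.12 and the corepressor TLE2 by -0.17 ± 0.08. Of 15 other reported WNT targets 7 were higher and 8 lower, with CAB39L at 0.43 ± 0.15, the homeobox gene GBX2 at -0.28 ± 0.10 and ASCL2, a transcription factor of intestinal stem cells, at -0.28 ± 0.17. Without the stomach round 2 array the ASCL2 difference was -0.045.

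**Figure D4:**
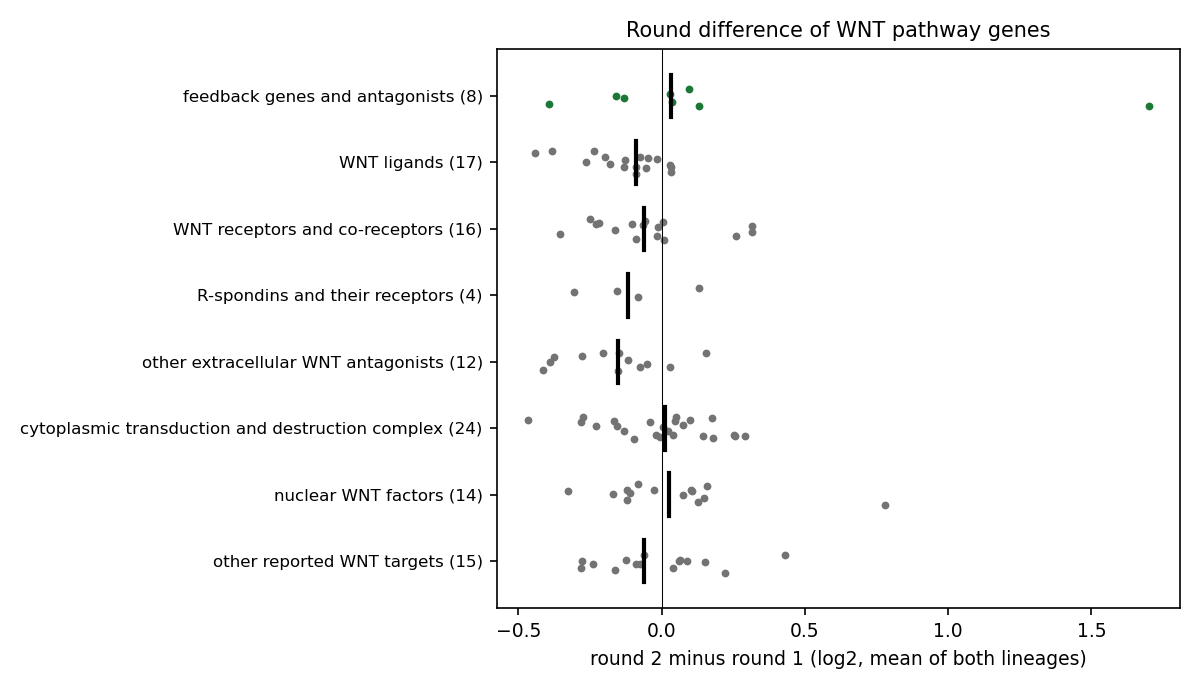
Round 2 minus round 1 (horizontal axis, log2, mean of both lineages) for the 8 tested members in green and for 7 lists of other pathway genes in grey, 1 point per gene with the number of genes in brackets and the median as a black bar. Medians run from -0.15 for other extracellular antagonists to 0.033 for the members, and DKK1 at 1.70 is the point furthest right.

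Between sites the other pathway genes were close to level, with a median of -0.024 and 40 of 101 above 0. Each of the 21 site differences given next moved by over 1.5 times or turned when 1 array was left out. TLE4 was furthest apart at -0.75 ± 0.48, and without the ovary round 1 array its difference was -0.039. The extracellular antagonists FRZB, SOST and SFRP5 differed by -0.27 ± 0.21, -0.22 ± 0.19 and -0.17 ± 0.20. In the ligand list, WLS differed by 0.34 ± 0.29, WNT4 by -0.23 ± 0.12 and WNT2B by 0.22 ± 0.14. Among receptors, the WNT-binding receptor kinase ROR1 differed by 0.32 ± 0.41, LRP5 by -0.26 ± 0.17 and FZD5 by -0.14 ± 0.10. The R-spondin receptors LGR6 and LGR4 differed by -0.28 ± 0.12 and 0.14 ± 0.17, and the ligand RSPO4 by -0.17 ± 0.12. CXXC4 (0.32 ± 0.24), AMER1, a partner of the destruction complex (0.20 ± 0.15), and FRAT1 (0.19 ± 0.16) were higher in ovary on average. SOX17 (-0.19 ± 0.18) and CTNNBIP1, an inhibitor of beta-catenin binding to TCF (-0.14 ± 0.11), were lower on average. Of the other reported targets, the amino acid transporter SLC7A5 differed by 0.32 ± 0.20, SOX4 by 0.30 ± 0.15 and BAMBI, a decoy receptor of TGF-beta signalling, by 0.26 ± 0.13. The adjusted p was 1.0 for each of these genes (limma).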

How the data were processed

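Total RNA of cultured cells was extracted with TRIzol, fragmented and biotinylated (Affymetrix WT labelling reagents) for array hybridisation, per the labels' protocols. The authors deposited log2 expression values, 1 row per probe set and 1 column per array. The submitters' processing notes name Affymetrix Expression Console. For background correction, normalization and genome build no setting is stated there, so if arrays were scaled to each other a shift of all transcripts would not show. That the scale is log2 was inferred from their range.

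Probe sets were named through GEO's platform annotation: of 33297 rows, 19460 had 1 gene symbol, 1754 several and 12083 none. Rows with 1 symbol were used, symbols were updated to RefSeq (GRCh38.p14; 19429 rows found), and the probe set with the highest mean stood for a gene. Of 18417 genes, 14547 lay above the signal minimum (5.64, the 30th percentile). limma 3.58.1 in R 4.3.3 (lmFit, eBayes, two-sided, Benjamini-Hochberg adjusted over all 14547 genes) was fitted on all 4 arrays for site, round and their interaction, without a block. On simulated data without an effect of the other factor, the fits for site and round recovered planted changes. The interaction fit returned their mean size and called none. This does not show how many changes the fits would find on these arrays. The number of arrays limits the precision. The arrays of a site are successive passages, and the arrays of a round are its sites. The p-values therefore set each difference against a spread that holds the difference of the other factor and may be partly technical. Named pathway genes are up to 3 per list and comparison by the size of the mean difference, and the 5 nearest profiles to the member of widest range. Alternatives were the filter, normalization, probe set, prior, block, threshold and each array left out. The members, lists and tests were chosen with earlier results of these data known. Promoter windows came from RefSeq; 4 members had one. Figures used matplotlib 3.10.9.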

Additional observations from a re-analysis of the deposited data

How the results depend on the processing

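Of the 58 alternative values for the counts of called genes and the members' median differences, none moved a count of calls, or a median by more than the spread between replicates. No gene was called under any of them for sites, rounds or the interaction, leaving out each array included for sites and rounds (0 to 0 genes). The interaction was not run with arrays left out, because 3 arrays cannot give it, and the members' medians involve no prior or p threshold. At an adjusted p under 0.10 the count was also 0 for the 3 comparisons, but 4 between rounds with arrays centred on their medians. With the replicate block (the round between sites and for the interaction, the site between rounds) 0 genes were called, and DKK1 between rounds had an adjusted p of 0.208. Between sites 916 genes had an unadjusted p under 0.05 with the block (limma), against 378 genes and no member without it. DKK1, WNT4, LRP5, FRZB and CXXC4 were among the 916. Deviations from the site means correlated at 0.41 across genes between arrays of the same round. With 2 arrays per site the deviations of 1 round mirror those of the other, so the 2 pairs hold the same comparison. This is too little to show that the round pairs the samples. The adjusted p of DKK1 between rounds ran from 0.208 to 0.492 over its 13 alternatives, and that of SP5 from 0.224 to 0.488. With arrays left out, the members' median lay between -0.0049 and 0.073 for sites (0.12 with the minimum at the 50th percentile) and between -0.014 and 0.064 for rounds (-0.00017 with the minimum at the 50th percentile), and the DKK1 round difference between 1.03 and 2.37. Leaving out 1 array moved 6 of 8 members' site differences (not DKK4 or ZNRF3) and 7 of 8 round differences (not SP5) by over 1.5 times or turned them; ZNRF3 between rounds ran from -0.24 to -0.019. Among single genes 16 alternatives turned the direction, each by leaving out 1 array and each of a difference that was not called. Between sites the ranges were -0.23 to 1.95 for DKK1, -0.19 to 0.0073 for AXIN2, -0.020 to 0.089 for NKD1, -0.070 to 0.13 for RNF43, -0.37 to 0.081 for SP5, -0.079 to 0.75 for WLS, -0.21 to 0.84 for ROR1, -0.069 to 0.35 for LGR4, -0.40 to 0.054 for SFRP5 and -0.40 to 0.010 for SOX17. Between rounds they were -0.11 to 0.18 for DKK4, -0.0014 to 0.19 for AXIN2, -0.028 to 0.087 for NKD1 and -0.088 to 0.35 for LGR4. Leaving out 1 array unbalances the other factor, so part of a round difference enters a site value and the reverse. A turned sign need not mean a turned direction within a round. By the titles, DKK1 was higher in ovary in round 2 (1.35) and in round 1 (0.37), and with the round 2 labels exchanged only in round 1. At 3-fold in place of 2-fold, 0 of 9 measured members were past the threshold in stomach lines between rounds and in round 2 between sites. Of 14547 genes, 2 were higher and 2 lower in the first, and 5 higher and 0 lower in the second. At 1.5-fold the member count was 1 in each, as at 2-fold. Beside it stood 179 higher and 136 lower genes in the first, and 117 higher and 61 lower in the second. In ovary lines between rounds 1 member was past 3-fold, beside 23 higher and 4 lower genes. In round 1 between sites it was 0 members at each threshold.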

Other observations

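An interaction of site and round of at least 2-fold was found in 2 of the 101 other pathway genes above the signal minimum, ROR1 and TLE4, beside 0.88% of all tested genes. ROR1, a receptor kinase that binds WNT ligands, stood at 7.83 in ovary and 6.68 in stomach in round 2, against 7.22 in ovary and 7.73 in stomach in round 1. Its round difference was 1.66 ± 0.40 larger in ovary than in stomach lines. With the round 2 labels exchanged its round 2 values would be 6.68 in ovary and 7.83 in stomach. The ROR1 interaction would then turn direction and lie under 2-fold. TLE4, a corepressor that TCF factors recruit, was low on the ovary round 1 array alone, with an interaction of 1.31 ± 1.03. The errors are limma's standard errors from a fit that counts the site and round effects as spread, so neither value has a usable test.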
